A study of Mus musculus with 13 samples.

Results

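The transcripts described are those of 8 genes of MHC class I antigen presentation, out of 20325 genes in each file. They were taken by gene name: H2-K1 and H2-D1 (class I heavy chains), B2m (the light chain), Tap1 and Tap2 (the peptide transporter), Tapbp (tapasin), and Psmb8 and Psmb9 (inducible proteasome subunits). All 8 were found in every library, and all 8 were among the 14324 genes that passed the filter on low counts. RNA was sequenced from mouse pre-iPSCs, cells derived from embryonic fibroblasts that stalled on the way to induced pluripotent stem cells. Kdm3b knockout (KO) cells and wild-type (WT) cells were sampled at day 0, day 2 and day 10, with 2 libraries per genotype and day, lettered A and B. Both genotypes received the same mixture, written AA+2i: ascorbic acid at 50 µg/mL, the GSK3 inhibitor CHIR-99021 and the MEK inhibitor PD-0325901. They grew in serum and leukemia inhibitory factor, and the cultures were split on day 4. The day 0 libraries are titled DMSO although their treatment label reads AA+2i, so their treatment is uncertain. A further library came from V6.5 mouse embryonic stem cells (ESC), also labelled AA+2i at 0 hours, and its treatment is uncertain as well. The labels do not say how Kdm3b was disrupted, whether the KO cells are 1 clone, or whether the letters stand for separate cultures. If A and B were not separate cultures, the p-values measure only technical spread.

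Class I molecules show peptides from inside the cell to cytotoxic T cells. The proteasome cuts proteins into peptides, the TAP1/TAP2 transporter carries them into the endoplasmic reticulum, and tapasin helps load them onto a heavy chain paired with beta-2-microglobulin. Interferon raises most of these genes, and Psmb8 and Psmb9 then replace the constitutive catalytic subunits encoded by Psmb5 and Psmb6. Early embryonic and pluripotent cells are known for low class I on their surface, and fibroblasts for more. KDM3B removes methyl groups from lysine 9 of histone H3, a mark of silent chromatin.

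The upstream sequences of 5 genes are shown. Psmb8, Psmb9 and B2m were taken because they were called different between KO and WT cells. The heavy chain genes were taken because they share a searched motif form that was not found in those 3. Tap1 shares its start region with Psmb9. RefSeq promoter windows of build GRCm38.p6, each from 250 bases before to 50 bases after a gene start, were found for 7 of the 8 genes, and Tap2 is named only. H2-K1 has a pair of windows 14 bases apart, of which the first is used. Of the 7 genes, 6 lie on chromosome 17 and B2m lies on chromosome 2. The bases before the start are printed 5′ to 3′ on the strand named, with capitals marking every match, on either strand, to 4 motifs: the interferon-stimulated response element form GAAANNGAAA, the gamma-activated site form TTCNNNGAA, the kappa B form GGGNNTTCCC, and the CCAAT box.
Psmb9 and Tap1, the bases between their starts (chr17:34187331-34187555, plus strand, the strand of Tap1): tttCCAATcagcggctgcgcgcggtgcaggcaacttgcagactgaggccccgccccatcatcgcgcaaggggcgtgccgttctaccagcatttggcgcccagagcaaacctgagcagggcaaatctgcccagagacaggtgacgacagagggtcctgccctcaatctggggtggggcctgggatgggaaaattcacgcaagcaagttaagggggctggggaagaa
Psmb8 (chr17:34197945-34198194, plus strand): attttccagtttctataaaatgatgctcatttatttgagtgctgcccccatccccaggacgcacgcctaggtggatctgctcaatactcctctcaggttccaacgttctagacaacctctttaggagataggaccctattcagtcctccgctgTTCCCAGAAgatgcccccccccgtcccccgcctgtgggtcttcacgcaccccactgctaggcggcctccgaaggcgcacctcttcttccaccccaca
B2m (chr2:122147437-122147686, plus strand): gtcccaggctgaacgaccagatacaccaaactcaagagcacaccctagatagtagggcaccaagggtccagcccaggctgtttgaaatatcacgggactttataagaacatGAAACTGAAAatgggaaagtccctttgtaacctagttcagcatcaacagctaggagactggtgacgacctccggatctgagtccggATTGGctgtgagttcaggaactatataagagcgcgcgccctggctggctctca
H2-K1 (chr17:34000334-34000583, minus strand): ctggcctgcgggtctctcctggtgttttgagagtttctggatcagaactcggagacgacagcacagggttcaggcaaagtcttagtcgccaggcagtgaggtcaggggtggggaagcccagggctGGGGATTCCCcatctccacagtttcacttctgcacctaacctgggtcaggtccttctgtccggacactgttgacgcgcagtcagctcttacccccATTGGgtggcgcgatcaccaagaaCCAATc
H2-D1 (chr17:35262844-35263093, plus strand): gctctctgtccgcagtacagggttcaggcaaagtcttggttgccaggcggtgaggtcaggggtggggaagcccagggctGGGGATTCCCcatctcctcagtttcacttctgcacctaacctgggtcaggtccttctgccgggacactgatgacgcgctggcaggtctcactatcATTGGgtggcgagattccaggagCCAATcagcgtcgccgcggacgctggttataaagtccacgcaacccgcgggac

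Tap1 and Psmb9 run in opposite directions from starts 226 bases apart, so that their windows share 275 bases, and the start of Psmb8 lies 10865 bases from that of Psmb9. The response element form was found in B2m alone of the 7 genes, at position -139 from its start, and in 3.44% of the 32851 windows of the table. The gamma-activated form was found in Psmb8 alone, at -97, and in 8.30% of all windows. The kappa B form stood in H2-K1 at -125 and in H2-D1 at -171, and in 1.75% of all windows. A CCAAT box, the shortest motif, stood in 6 of the 7 genes and in 37.4% of all windows. A match describes letters only. Sites with other letters or spacing were not searched, so a form that was not found does not mean that such a site is absent.

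Library totals ran between 14891294 and 26430050 expected counts. Levels are given in CPM, the expected count scaled by the library total, per library as A and B, or as mean ± SD with n = 2. A gene is called changed where edgeR's quasi-likelihood test, adjusted by Benjamini and Hochberg over all tested genes, gave an FDR (false discovery rate) under 0.05. Log2 fold changes stand with ± their standard error, and CPM means with ± the SD. The transcript of Kdm3b was at 17.7 to 65.5 CPM in the 6 KO libraries, against 146 to 261 CPM in the 6 WT libraries, and was called lower in KO on each day (log2 fold change -1.98 at day 0, -2.71 at day 2 and -2.67 at day 10). The labels do not give the disrupted stretch, so the remaining reads were not placed within the gene. Leaving out KO day 0 A or WT day 0 B ended the day 0 call (-1.71 each), and with only the 4 libraries compared the FDR was 0.0774 at day 0 and 0.0532 at day 2. At days 0 and 2 the letters differed together in both genotypes: the A minus B differences of any 2 of these 4 groups correlated at 0.741 to 0.812 across genes, against -0.061 to 0.049 wherever a day 10 group was involved. At these days, transcripts of 4326 bases or more had letter B values above those of letter A (median ratio 1.30 to 1.48 over the 4 groups), and transcripts of 1872 bases or less had lower ones (0.672 to 0.793). Results for days 0 and 2 are therefore given within each letter too. A fit with the letter of days 0 and 2 as a block is called the letter block here. It is given where it changed a call of KO against WT, and for some changes over time. Of all 14324 tested genes the letter block called 4360, 5252 and 9136 for KO against WT at days 0, 2 and 10.

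**Figure D1:**
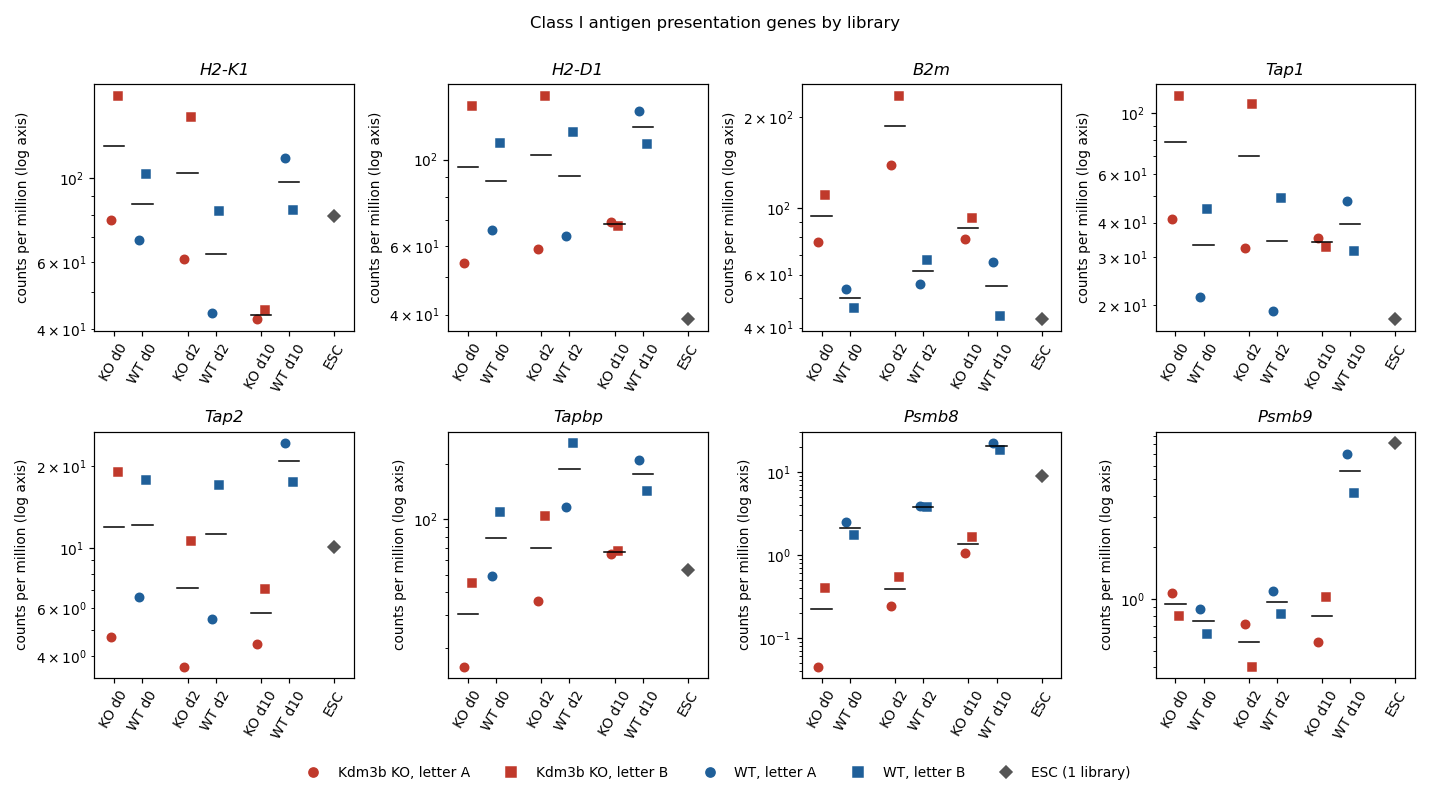
Level in CPM (log axis, scaled separately in each panel) of the 8 class I presentation genes in each of the 13 libraries, with KO in red, WT in blue, circles for letter A, squares for letter B and black lines for the mean of 2 libraries. Psmb8 lies lower in each KO library than in any WT library, and Psmb9 stands at 4.14 and 6.999 CPM in WT at day 10 but at or below 1.11 CPM in the other pre-iPSC libraries.

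The proteasome subunit Psmb8 showed the largest difference between the genotypes among the 8 genes. It was lower in KO cells on each day, and it rose by day 10 in WT cells and in KO cells. In KO libraries it had 0.0449 and 0.397 CPM at day 0 (1 and 8 counts), 0.2398 and 0.537 CPM at day 2 (5 and 8 counts) and 1.06 and 1.64 CPM at day 10 (17 and 27 counts). In WT libraries it had 2.46 and 1.71 CPM at day 0 (65 and 33 counts), 3.87 and 3.76 CPM at day 2, and 22.4 and 18.4 CPM at day 10 (407 and 285 counts). The highest KO library, at day 10, stayed below the lowest WT library, at day 0. On day 0 the log2 fold change of KO over WT was -3.23 ± 0.623 (FDR = 0.0139), on day 2 it was -3.27 ± 0.584 (FDR = 0.00805), and on day 10 it was -3.87 ± 0.518 (FDR = 0.000810), the last a 14.6-fold lower level. Within letters, the log2 ratio of KO over WT was -4.01 in A and -2.81 in B at day 2 and -2.11 in B at day 0. In A at day 0 the KO library held 1 count, with a 95% exact interval of 0.00114 to 0.250 CPM, against 2.46 CPM in the WT library. Without KO day 0 A (-2.39, FDR = 0.0530) or WT day 0 A (-2.88, FDR = 0.0757) the day 0 difference was not called, nor was the day 2 difference without KO day 2 A (-2.80, FDR = 0.0571). With only the 4 libraries compared the FDR was 0.169 at day 0 and 0.0603 at day 2. In bulk RNA, fewer cells expressing a gene and less of its RNA in each cell cannot be told apart.

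Between day 0 and day 10 Psmb8 rose 9.23-fold in WT cells (log2 fold change 3.21 ± 0.490, FDR = 0.00125), of which the step from day 2 to day 10 made up a log2 fold change of 2.39 (FDR = 0.00545). In KO cells the day 10 to day 0 log2 fold change was 2.57 ± 0.652 (FDR = 0.0299), with 1 and 8 counts behind the day 0 values. That call was lost in 6 of the fits that left out 1 library and with only the 4 libraries compared (log2 fold changes of 1.74 to 2.85, FDR = 0.0505 to 0.158). The 6 libraries were KO day 0 A, KO day 10 A, KO day 10 B, WT day 2 B, WT day 10 A and WT day 10 B. Whether the genotypes differed in this change was not resolved: the interaction of genotype with day 10 was -0.64 ± 0.886 (FDR = 0.761), and it turned to 1.45 without KO day 0 B.

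Psmb9, the partner of Psmb8 in the immunoproteasome, differed between the genotypes at day 10 but was not called at the earlier days. Its KO values were 1.08 and 0.794 CPM at day 0, 0.719 and 0.403 CPM at day 2, and 0.562 and 1.03 CPM at day 10. The WT values were 0.870 and 0.623 CPM at day 0, 1.11 and 0.820 CPM at day 2, and 6.999 and 4.14 CPM at day 10. Both WT libraries of day 10 lay above the other 10 pre-iPSC libraries. KO against WT gave 0.36 on day 0 (FDR = 0.881; 0.31 in A and 0.35 in B) and -0.67 on day 2 (FDR = 0.576; -0.63 in A and -1.03 in B). On day 10 it gave -2.75 ± 0.479 (FDR = 0.00280), a 6.72-fold lower level in KO cells. Psmb9 rose 6.98-fold in WT cells by day 10 (log2 fold change 2.80 ± 0.469, FDR = 0.001965), while the KO change was -0.30 ± 0.504 (FDR = 0.775). The difference of these changes was called: the interaction was -3.11 ± 0.684 (FDR = 0.0194). It was lost without KO day 0 A, KO day 10 A, WT day 0 B or WT day 10 A (log2 values of -2.66 to -2.84, FDR = 0.0644 to 0.0836). The read numbers were small, at 6 to 24 counts per KO library.

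Set against their constitutive counterparts on a per-length scale (TPM, the deposited length-corrected level), both inducible subunits remained minor transcripts. The TPM ratio of Psmb8 to Psmb5 at day 10 was 0.00599 and 0.00931 in KO libraries, against 0.131 and 0.0885 in WT libraries. At day 0 it was 0.000184 (from 1 count of Psmb8) and 0.00311 in KO libraries, against 0.01001 and 0.0118 in WT libraries. For Psmb9 over Psmb6 the day 10 ratios were 0.00577 and 0.0119 in KO libraries, against 0.0525 and 0.0376 in WT libraries. The counterparts themselves were not called: of 6 constitutive proteasome genes (Psmb5, Psmb6, Psmb7, Psme3, Psma1 and Psmd1), 0 passed in any of the 11 comparisons, with a median log2 fold change of -0.12 for KO against WT at day 10. In that comparison 19.9% of all tested genes were called lower and 12.4% higher, and the standard errors of these 6 reached 0.607. Psmb10, the third inducible subunit and named here for its role, had 10.997 and 8.03 CPM in KO libraries at day 10, against 16.1 and 12.9 CPM in WT libraries, and was not called.

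**Figure D2:**
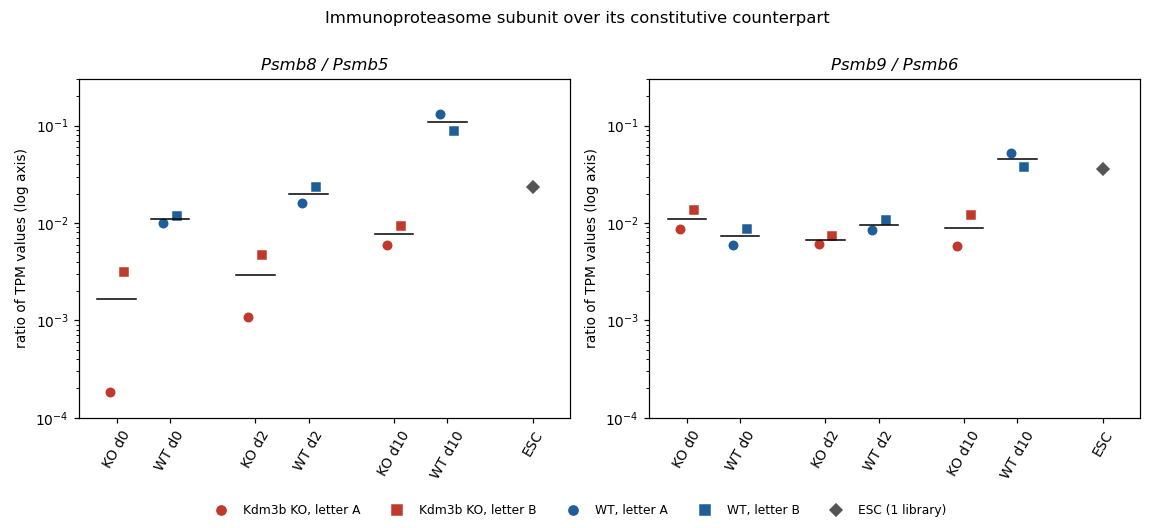
Ratio of TPM values (log axis) of Psmb8 to Psmb5 on the left and of Psmb9 to Psmb6 on the right, per library, with KO in red, WT in blue and the ESC library in grey; black lines are means of 2 libraries. Both ratios peak in WT at day 10, at 0.0885 and 0.131 for Psmb8 and 0.0376 and 0.0525 for Psmb9.

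The transporter genes Tap1 and Tap2 were not called in any of the comparisons by edgeR's test over the 6 groups, although other fits called some of them. Tap1, which shares its start region with Psmb9, had 41.1 and 116 CPM at day 0, 32.4 and 108 CPM at day 2 and 35.2 and 32.6 CPM at day 10 in KO libraries. In WT libraries it had 21.5 and 44.7 CPM at day 0, 19.1 and 49.2 CPM at day 2 and 47.8 and 31.4 CPM at day 10. The KO library was above the WT library of the same letter at days 0 and 2, by log2 ratios of 0.94 in A and 1.38 in B at day 0 and of 0.77 in A and 1.14 in B at day 2. Over both letters the log2 fold change was 1.30 ± 0.652 for day 0 (FDR = 0.347), 1.10 ± 0.650 for day 2 (FDR = 0.405) and -0.18 ± 0.645 for day 10 (FDR = 0.878), which turned to 0.18 without WT day 10 A. With the letter block Tap1 was called higher in KO at day 0 (1.21, FDR = 8.17e-05) and at day 2 (1.04, FDR = 0.0002665), while the FDR over all the alternatives ran up to 0.822 at day 0 and 1.0 at day 2. At day 10, therefore, Tap1 overlapped between the genotypes while Psmb9 did not.

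Tap2 showed its lowest KO values relative to WT at day 10. The KO libraries had 4.71 and 19.1 CPM at day 0, 3.67 and 10.6 CPM at day 2 and 4.44 and 7.09 CPM at day 10. The WT libraries had 6.62 and 17.8 CPM at day 0, 5.47 and 17.0 CPM at day 2 and 24.3 and 17.5 CPM at day 10. Within letters the log2 ratio of KO over WT was -0.49 in A and 0.10 in B at day 0, and -0.58 in A and -0.67 in B at day 2. KO against WT at day 10 was -1.81 ± 0.782 (FDR = 0.115), with no overlap between the libraries and no call. It was called by DESeq2 (-1.86, FDR = 0.0480) and with the letter block (-1.81, FDR = 8.31e-06), while the FDR over all the alternatives ran up to 0.398. The change in WT from day 0 to day 10 depended on the letter, with a log2 ratio of 1.88 in A and -0.02 in B.

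Tapbp, whose product bridges the transporter and the empty class I molecule, had lower values in KO than in WT libraries of the same letter on each day, and whether the difference was called depended on how the letters were treated. KO libraries had 15.8 and 45.1 CPM at day 0, 35.7 and 104 CPM at day 2 and 65.0 and 67.0 CPM at day 10. WT libraries had 49.3 and 109 CPM at day 0, 116 and 259 CPM at day 2 and 209 and 143 CPM at day 10. The groups did not overlap on any day, with log2 fold changes of -1.33 ± 0.614 for day 0 (FDR = 0.290), -1.36 ± 0.613 for day 2 (FDR = 0.237) and -1.37 ± 0.613 for day 10 (FDR = 0.127). None of these passed the threshold, and letter B was 2.22 to 2.91 times letter A at days 0 and 2. With the letter block Tapbp was called lower in KO at day 0 (-1.40, FDR = 1.12e-05), day 2 (-1.43, FDR = 4.97e-06) and day 10 (-1.37, FDR = 2.65e-06). With letter A alone at days 0 and 2 the log2 fold change was -1.61 at day 0 and -1.64 at day 2. With letter B alone it was -1.22 at day 0 and -1.27 at day 2. Those fits hold 1 library per group at these days, so their spread comes from the day 10 libraries only. Over all the alternatives the FDR ran up to 0.730 at day 0, 0.685 at day 2 and 0.416 at day 10. Within letters KO over WT was -1.64 in A and -1.28 in B at day 0, and -1.70 in A and -1.32 in B at day 2. From day 0 to day 2 Tapbp moved by like amounts in both genotypes, with log2 ratios of 1.17 in A and 1.20 in B in KO and of 1.23 in A and 1.25 in B in WT, and neither change was called in the pooled fit (FDR = 0.393 in KO and 0.369 in WT). With the letter block both were called (FDR = 7.07e-05 in KO and 3.49e-05 in WT).

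The heavy chains H2-K1 and H2-D1 overlapped between the genotypes at days 0 and 2, and at day 10 both KO libraries lay below both WT libraries. H2-K1 had 77.5 and 166 CPM at day 0, 61.1 and 145 CPM at day 2 and 42.4 and 44.8 CPM at day 10 in KO libraries. In WT libraries it had 68.7 and 103 CPM at day 0, 44.2 and 82.2 CPM at day 2 and 113 and 82.4 CPM at day 10. At day 10 H2-K1 averaged 43.6 ± 1.68 CPM in KO cells and 97.7 ± 21.7 CPM in WT cells (log2 fold change -1.11 ± 0.448, FDR = 0.0915), and the KO change from day 0 to day 10 was -1.52 ± 0.452 (FDR = 0.0541). H2-D1 averaged 68.3 ± 1.13 CPM in KO cells at day 10 and 121 ± 16.5 CPM in WT cells (-0.78 ± 0.484, FDR = 0.270). It had 54.3 and 137 CPM in KO libraries at day 0 and 59.1 and 146 CPM at day 2, against 65.9 and 110 CPM in WT libraries at day 0 and 63.8 and 118 CPM at day 2. Within letters the H2-K1 log2 ratio of KO over WT was 0.17 in A and 0.69 in B at day 0, and 0.47 in A and 0.82 in B at day 2. That of H2-D1 was -0.28 in A and 0.32 in B at day 0, and -0.11 in A and 0.31 in B at day 2. By edgeR's test over the 6 groups neither heavy chain gene was called in any comparison. For H2-K1, DESeq2 called KO against WT at day 10 (-1.16, FDR = 0.0447) and the KO change to day 10 (-1.52, FDR = 0.00935). The letter block called both as well (FDR = 2.79e-05 and 5.08e-06), while over all the alternatives the FDR ran up to 0.364 and 0.323. For H2-D1 the letter block called KO against WT at day 10 (-0.78, FDR = 0.000242), with an FDR of up to 0.585 over all the alternatives. Expected counts that are not whole (tolerance 0.005) hold reads divided between transcripts. They stood in 13 of the 13 libraries for H2-D1 and for Tapbp, in 11 for H2-K1, in 8 for Tap1 and for Tap2, in 7 for B2m and in 0 for Psmb8 and for Psmb9. Which transcripts shared the reads is not given in the files. Class I heavy chain genes are known to have near-identical copies, so the split between them is uncertain.

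B2m, the light chain that every classical heavy chain needs, differed in the other direction. Its KO values stood above its WT values on each day, and the difference was called at day 2. The KO libraries had 76.8 and 111 CPM at day 0, 138 and 236 CPM at day 2 and 78.9 and 92.9 CPM at day 10. The WT libraries had 53.7 and 46.6 CPM at day 0, 55.7 and 67.4 CPM at day 2 and 66.2 and 43.8 CPM at day 10. B2m did not overlap between the genotypes on any day, and the KO libraries of day 2 stood above all others. The log2 fold change of KO over WT was 0.94 ± 0.284 for day 0 (FDR = 0.0869) and 0.69 ± 0.283 for day 10 (FDR = 0.0972). For day 2 it was 1.67 ± 0.289 (FDR = 0.00707), a 3.17-fold higher level in KO cells. Within letters, the day 2 log2 ratio was 1.31 in A and 1.81 in B, and that of day 0 was 0.52 in A and 1.25 in B. The day 2 difference was not called without WT day 2 A (1.59, FDR = 0.0643) or WT day 2 B (1.75, FDR = 0.0551), or with only the 4 libraries compared (1.66, FDR = 0.0909). In KO cells B2m was not called between day 0 and day 2 (0.98 ± 0.284, FDR = 0.0866) or between day 2 and day 10 (-1.16 ± 0.285, FDR = 0.0689). DESeq2 called both (FDR = 0.0252 and 0.00562), and KO against WT at day 0 (0.93, FDR = 0.0282). With the letter block KO against WT was called at day 0 (FDR = 0.00321) and day 10 (FDR = 0.00857), while over all the alternatives the FDR ran up to 0.394 and 0.451.

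Per length, the proportion of light chain to heavy chain transcripts overlapped between the genotypes at day 0 and lay higher in both KO libraries at days 2 and 10, with no test made of it. The TPM of B2m over the summed TPM of H2-K1 and H2-D1 at day 0 was 1.18 and 0.740 in KO libraries, against 0.811 and 0.446 in WT libraries. At day 2 it was 2.34 and 1.65 in KO libraries, against 1.06 and 0.689 in WT libraries. At day 10 it was 1.45 and 1.69 in KO libraries, against 0.548 and 0.466 in WT libraries. B2m had the highest TPM of the 8 genes in 10 of the 13 libraries, H2-D1 in 2 and Tapbp in 1. Psmb9 had the lowest TPM in 8 libraries, Psmb8 in the 4 KO libraries of days 0 and 2, and Tap2 in the ESC library.

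**Figure D3:**
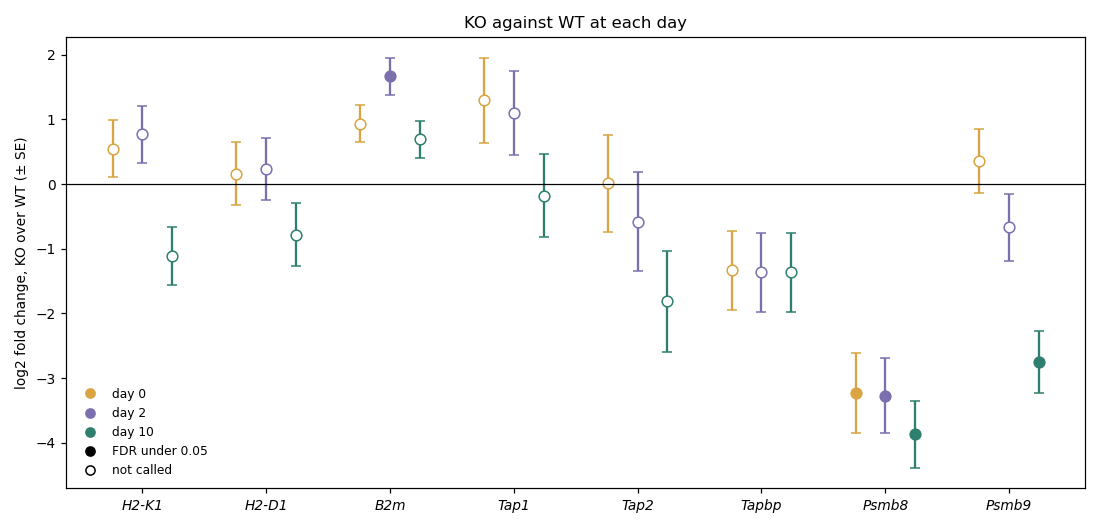
Log2 fold change of KO over WT (± SE) for the 8 genes at day 0, day 2 and day 10, with filled points where the FDR was under 0.05. Psmb8 lies below -3 on each day, Psmb9 at -2.75 at day 10, and B2m above 0 on each day with 1.67 at day 2.

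Counted over the 8 genes, few passed the threshold of edgeR's test over the 6 groups in each comparison. For KO against WT, 1 gene was lower at day 0 (Psmb8), against 5.59% of all tested genes. At day 2, 1 was lower (Psmb8), against 6.16%, and 1 higher (B2m), against 4.29%. At day 10, 2 were lower (Psmb8 and Psmb9), against 19.9%, and 0 higher, against 12.4%. A share of 2 in 8 at day 10 is near that background. The median log2 fold change over the 8 genes at day 10 was -1.24, with 7 of 8 negative, against -0.02 over all tested genes. Over time in WT, 2 of 8 were higher at day 10 than at day 0 (Psmb8 and Psmb9), against 21.0% of all genes, and 0 lower, against 13.1%. The same 2 were higher at day 10 than at day 2, against 18.3%.

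Other changes over time left few calls. In KO cells 1 gene was higher at day 10 than at day 0 (Psmb8), against 9.93%. No gene of the 8 was called between day 2 and day 0 in KO (6.39% of all genes were, in either direction) or in WT (5.3%), nor between day 10 and day 2 in KO (3.1%). At an unadjusted p under 0.05 these counts were 1, 0 and 3 genes, and DESeq2 called 1, 0 and 2. The share of all tested genes at that unadjusted threshold is not given, so the unadjusted counts cannot be set against a background. Over all genes DESeq2 called 1507, 1439 and 1321 in the same comparisons. For the interaction with day 2 the count was 0, as it was at an unadjusted p under 0.05 and in DESeq2 (0.195% of all genes in edgeR). The interaction with day 10 was called lower for 1 gene (Psmb9), against 6.2%. All 8 genes had a negative day 10 interaction, with a median of -1.21, against 0.01 over all tested genes; the sign for Psmb8 turned in some fits, as given above.

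**Figure D4:**
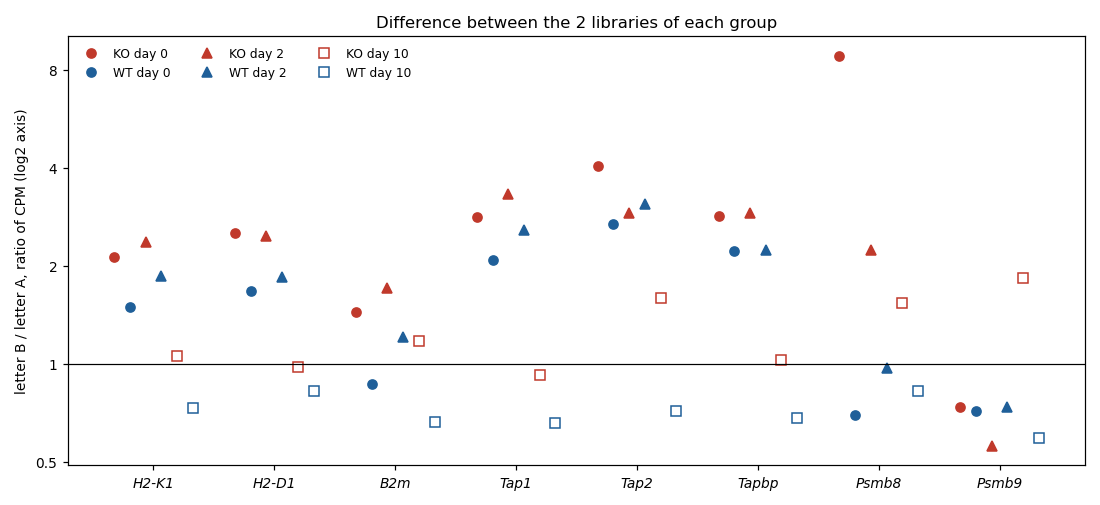
Ratio of the letter B to the letter A library of each group (CPM, log2 axis) for the 8 genes, with KO in red, WT in blue, filled circles for day 0, filled triangles for day 2 and open squares for day 10. At days 0 and 2 the ratios of Tap1, Tap2 and Tapbp lie between 2.08 and 4.04, and those of Psmb9 between 0.560 and 0.737.

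The letters moved with several of these genes. Over the 9619 genes averaging at least 10 CPM the letters of days 0 and 2 moved with transcript length, which the 8 genes followed only in part. In WT at day 0 the ratio of letter B to letter A was 0.716 for Psmb9 and 0.868 for B2m, whose transcripts are 806 and 858 bases long. It was 0.697 for Psmb8, at 1223 bases. It was 2.08 for Tap1, 2.22 for Tapbp and 2.68 for Tap2, the 3 longest at 2490 bases or more. H2-K1 and H2-D1, at 1646 and 1736 bases, lay between them at 1.497 and 1.67. Yet the median ratio of all transcripts of 1872 bases or less was 0.732 in this group. Tap1, Tapbp and Tap2, at 2950 bases or less, lay above the median of 1.47 for transcripts of 4326 bases or more. The median ratio in this group was 1.58 over the 8 genes, against 1.11 over the 9619 genes. B2m, Psmb8 and Psmb9 had other ratios in the remaining groups of days 0 and 2. B2m was at 1.44 in KO at day 0, 1.71 in KO at day 2 and 1.21 in WT at day 2. Psmb8 was at 8.85 in KO at day 0 (1 and 8 counts), 2.24 in KO at day 2 (5 and 8 counts) and 0.972 in WT at day 2, while Psmb9 stayed below 1 in all 4 groups. At day 10 the median ratio over the 8 genes was 1.12 in KO and 0.700 in WT. All 8 WT ratios at day 10 were below 1. Comparisons of day 10 with an earlier day therefore set libraries without this letter pattern against libraries with it, and its part in those results was not tested.

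Partner genes of the same pathway did not pass the threshold. Of 8 loading and proteasome partners (Psmb10, Psme1, Psme2, Tapbpl, Erap1, Calr, Canx and Pdia3), 0 were called in any of the 11 comparisons, and the median log2 fold change of KO against WT at day 10 was -0.09. In that comparison 19.9% of all tested genes were called lower and 12.4% higher. The standard errors of these 8 reached 0.591 there, so a gene that was not called may still differ. Calr, Canx and Pdia3, chaperone genes named here for their roles, lay at 540 to 672 CPM in KO libraries at day 10 and at 548 to 750 CPM in WT libraries.

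Of 20 other class I heavy chain genes tested, most of them nonclassical, 10 were called lower in KO at day 10, against 19.9% of all tested genes, and 0 higher, against 12.4%. Their median log2 fold change was -1.24, against -0.02 over all tested genes, and the other 10 were not called, among them Cd1d1 (0.25) and H2-M2 (1.03), which were named after their values were seen. Of those called, H2-Q2, H2-Q7, H2-Q10, H2-T3 and H2-T10 averaged under 1 CPM and rest on few reads. At day 10 H2-Q7 had 2 counts over both KO libraries and 46 over both WT libraries, and H2-T10 had 1 and 45. H2-Bl had 1.67 and 0.838 CPM in KO libraries at day 10, against 22.03 and 21.3 CPM in WT libraries (-4.04 ± 0.391, FDR = 0.000195). H2-M5 was at -3.09 (FDR = 0.00695), H2-T23, whose product presents leader peptides to natural killer cells, at -1.09 (FDR = 0.00448), and Fcgrt, the neonatal Fc receptor, at -1.35 (FDR = 0.0103). In WT cells 7 of the 20 rose between day 0 and day 10, against 21.0% of all tested genes, and 1 fell, against 13.1%. H2-Bl was among those that rose, with 0.299 and 0.530 CPM in WT libraries at day 0 (5.67 ± 0.433, FDR = 5.39e-05). Calls of H2-M5 (without KO day 10 B), H2-T23 (without KO day 10 A) and Fcgrt (without KO day 10 A or WT day 10 A) were lost with 1 library left out, at FDR = 0.0562 to 0.0912. Most of these genes have close copies, so their values are uncertain.

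Among 17 regulators of class I transcription, KO cells at day 10 had 5 called higher, against 12.4% of all tested genes, and 5 lower, against 19.9%, with a median of 0.29. Irf1, a factor that binds interferon response elements, was among those lower, with 31.2 and 27.7 CPM in KO libraries at day 10, against 95.5 and 75.3 CPM in WT libraries (-1.49 ± 0.169, FDR = 0.000377). Irf1 was also called lower in KO at day 2 (-1.83) and at day 0 (-0.89). The day 0 call was lost when any 1 of the 4 day 0 libraries was left out (FDR = 0.0517 to 0.0809), and with only the 4 libraries compared the calls of day 0 (FDR = 0.190) and day 2 (FDR = 0.0535) were lost. The NF-kappa B subunit genes Nfkb1 (1.28 ± 0.161, FDR = 0.000605) and Rela (0.999 ± 0.186, FDR = 0.00377) were higher in KO. In WT cells 6 regulators rose by day 10, against 21.0% of all tested genes, and 7 fell, against 13.1%, with Irf9 at 1.20 (FDR = 0.00217) and Nfkb1 at -1.29 (FDR = 0.000452).

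Nlrc5, the class I transactivator, was a low transcript with a different course. It had 0.269 and 0.645 CPM at day 0, 2.25 and 5.24 CPM at day 2 and 1.75 and 1.15 CPM at day 10 in KO libraries. In WT libraries it had 0.114 and 0.415 CPM at day 0, 0.145 and 0.290 CPM at day 2 and 0.992 and 1.10 CPM at day 10. The day 2 log2 fold change of KO over WT was 4.11 ± 0.652 (FDR = 0.00471), on the day at which B2m was called higher too, and was not called with only the 4 libraries compared (FDR = 0.0647). Its change in KO cells between day 0 and day 2 was 2.997 ± 0.592 (FDR = 0.0187), a call lost without KO day 0 A, KO day 0 B or KO day 2 B (2.32 to 3.69, FDR = 0.0604 to 0.137), or with only the 4 libraries compared (FDR = 0.185).

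Interferon receptors and their kinases and inhibitors were called higher in 1 case and lower in 3 of 9 in KO at day 10, against 12.4% and 19.9% of all tested genes. Ifngr2, a chain of the interferon gamma receptor, had 61.5 and 63.4 CPM in KO libraries, against 19.1 and 17.4 CPM in WT libraries (1.82 ± 0.176, FDR = 0.000193). Socs1, a feedback inhibitor of interferon signalling, had 2.69 and 2.36 CPM in KO libraries, against 13.01 and 12.1 CPM in WT libraries (-2.26 ± 0.269, FDR = 0.000471). In WT cells 2 of the 9 rose by day 10 and 1 fell, against 21.0% and 13.1% of all tested genes. Of 6 interferon ligand genes, Ifnb1, Ifng, Ifna2, Ifna4 and Ifne had 0 counts in all 13 libraries. Ifnk was the 1 gene tested, at 0.0625 and 0 CPM in KO libraries at day 10, against 0.992 and 0.841 CPM in WT libraries, and was called lower in KO.

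**Figure D5:**
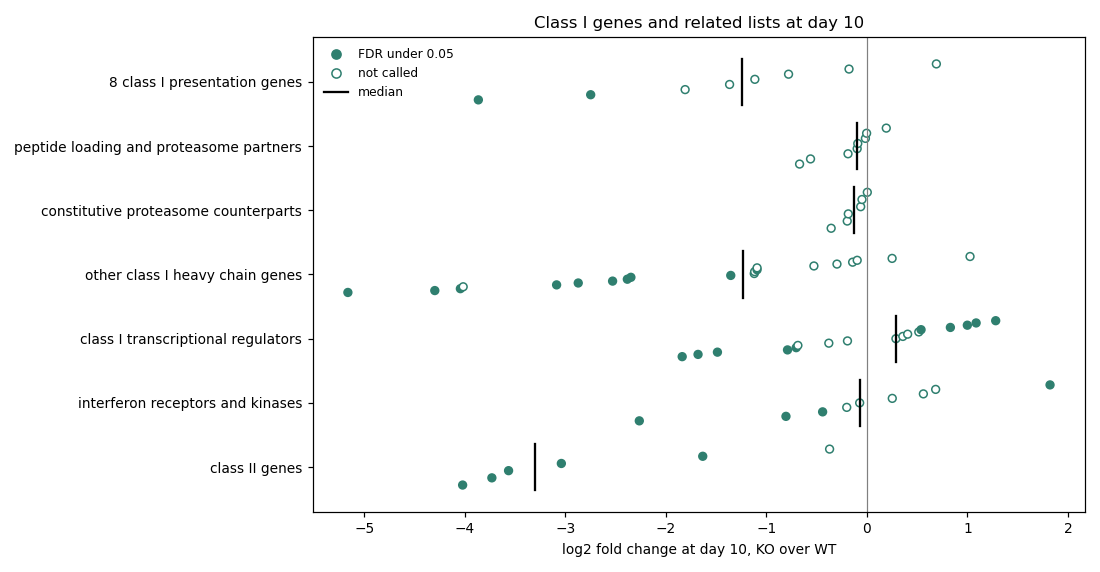
Log2 fold change of KO over WT at day 10 for the tested genes of each list, with filled points where the FDR was under 0.05 and black lines at the median. The 8 class I presentation genes (median -1.24) and the other heavy chain genes (-1.24) lie mostly left of 0, while the loading partners and constitutive proteasome genes, with medians of -0.09 and -0.12, hold no called gene.

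Markers of other cell types moved with genotype and time, and their part in the results was not tested. Over all tested genes 19.9% were called lower in KO at day 10 and 12.4% higher, and the counts below stand beside those shares. Of 6 class II genes tested, 5 were lower in KO at day 10. Cd74, the invariant chain, had 0.562 and 0.787 CPM in KO libraries, against 9.98 and 8.73 CPM in WT libraries (-3.73 ± 0.519, FDR = 0.000967). Of 5 immune cell markers tested, 4 were lower. The summed level of the 11 immune markers in the files at day 10 was 20.1 and 21.2 CPM in KO libraries, against 107 and 97.6 CPM in WT libraries, most of it from Laptm5. Csf1r, a macrophage receptor, was at 0.937 and 0.727 CPM in KO libraries, against 6.06 and 7.50 CPM in WT libraries. Laptm5 was at 11.4 and 9.87 CPM in KO libraries, against 73.2 and 66.8 CPM in WT libraries. The call of Csf1r was lost without KO day 10 B (FDR = 0.0545), and that of Laptm5 without KO day 10 A, KO day 10 B or WT day 10 A (FDR = 0.0505 to 0.0956). The defining leukocyte marker Ptprc was at or below 0.192 CPM in all 13 libraries, Tyrobp had 0 counts in all of them, and Emr1 had 0 counts in all pre-iPSC libraries. Of 10 fibroblast markers 6 were lower in KO at day 10, with a summed level of 25.7 and 26.5 CPM in KO libraries, against 101 and 133 CPM in WT libraries. Endothelial markers summed to 32.0 and 26.5 CPM in KO libraries, against 65.6 and 55.9 CPM in WT libraries, with 1 higher and 1 lower of 4 tested. Most of the WT sum came from Vwf, the gene called lower, at 54.8 and 44.4 CPM in WT libraries and 1.31 and 0.727 CPM in KO libraries. Tek was called higher in KO (1.41, FDR = 0.0107), Kdr (1.53) and Cdh5 (0.94) were not called, and the median of the 4 was 1.17. Of 8 pluripotency markers 5 were lower in KO at day 10, with Nanog at 32.8 and 31.0 CPM in KO libraries, against 298 and 331 CPM in WT libraries. Sox2 (-0.96), Pou5f1 (1.15) and Klf4 (1.15) were not called. Pou5f1 had 2510 and 3185 CPM in KO libraries, against 1265 and 1387 CPM in WT libraries. Klf4 had 622 and 824 CPM in KO libraries, against 356 and 318 CPM in WT libraries.

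The ESC library, with no replicate, gave a mixed picture. It had 8.96 CPM of Psmb8 (95% exact binomial interval 7.70 to 10.4, counting error only) and 8.17 CPM of Psmb9 (6.96 to 9.52). Psmb9 was thus above all 12 pre-iPSC libraries, although its interval overlapped that of WT day 10 A (5.84 to 8.33 CPM). Psmb8 lay between the KO and the WT libraries of day 10. The ESC levels of H2-D1 (38.9 CPM), B2m (42.6 CPM) and Tap1 (17.7 CPM) were below those of all pre-iPSC libraries. For B2m the ESC interval (39.8 to 45.5 CPM) overlapped that of WT day 10 B (40.6 to 47.2 CPM). For Tap1 the ESC interval (15.9 to 19.7 CPM) overlapped that of WT day 2 A (17.2 to 21.0 CPM). H2-K1 had 79.6 CPM, Tap2 10.09 CPM and Tapbp 53.1 CPM there, within the pre-iPSC range. Nanog stood at 291 CPM in the ESC library. The same library held 100.4 CPM of Col1a1 and 111 CPM of Col1a2, collagen genes of fibroblasts, against at most 77.4 and 16.2 CPM in any pre-iPSC library.

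Across the 12 pre-iPSC libraries the 8 genes did not share 1 profile. After scaling each gene's log2 CPM and averaging, the correlation with that mean profile was 0.956 for H2-D1, 0.901 for Tap2 and 0.747 for H2-K1. It was 0.622 for Tapbp, 0.611 for Tap1, 0.470 for Psmb8 and 0.407 for Psmb9, and 0.061 for B2m. Each of the 8 genes is itself part of the mean profile, which raises its value, so these correlations are not comparable with those of genes outside it. The closest pairs were H2-D1 with Tap2 (0.876), H2-K1 with Tap1 (0.820) and Tapbp with Psmb8 (0.816), and B2m ran against Psmb8 (-0.638). The 5 other genes with the highest correlation to the mean profile were Ftsjd2 (0.958), Glt25d1 (0.955), Adar (0.953), Rdh9 (0.952) and Man2a1 (0.949). These values describe libraries that share genotype, day and, at days 0 and 2, the letter difference.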

How the data were processed

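Single-end RNA libraries were made with a TruSeq RNA kit, per the labels' protocols. Reads were aligned with Bowtie2 and quantified with RSEM on mm9, per the submitters' processing notes, which give no versions of them. The authors deposited expected counts, in which RSEM divides reads that match several transcripts, and TPM values, per the file headers. Expected counts were rounded to whole numbers and fitted in edgeR 4.0.16 (quasi-likelihood test, R 4.3.3) over all 6 pre-iPSC groups (12 libraries, 6 residual degrees of freedom, filterByExpr, TMM, common biological coefficient of variation 0.266). The ESC library entered no test. TPM served only to compare levels between genes. The 8 genes, the 12 gene lists (122 of 131 entries found in the files) and the rules were chosen with earlier results of these data known. The text names all 8 genes in each main comparison, up to 4 called genes per list by lowest FDR among those averaging 1 CPM or more, and the 5 genes most like the mean profile; 1 gene that this rule names is not reported here. Alternatives were DESeq2 1.42.0, its size factors in edgeR, library totals without TMM, no filter, replicate blocks, only the libraries compared, and each library left out. Fits with 1 letter at days 0 and 2 were added after the values had been seen. The edgeR step was tested on simulated data. An exact permutation test of 2 against 2 libraries cannot go below p = 0.333 (two-sided).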

Additional observations from a re-analysis of the deposited data

Results flagged for a closer look

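The change between day 0 and day 10 differed between KO and WT cells for Psmb9 and for 5 named genes of the lists, by the interaction term of edgeR's quasi-likelihood test. For Psmb9 the interaction was -3.11 (FDR = 0.0194), with a day 10 over day 0 log2 fold change of -0.30 in KO and of 2.80 in WT. H2-Bl had an interaction of -3.60 (FDR = 0.00886), from 2.07 in KO and 5.67 in WT, and its call was lost without KO day 0 A (-3.34, FDR = 0.0570). The interaction of H2-Eb1, a class II chain, was -5.01 (FDR = 0.00922); it had 1.19 and 0.606 CPM in KO libraries at day 10, against 6.89 and 8.41 CPM in WT libraries, and its call was lost without KO day 0 B (-4.25, FDR = 0.0522). Ifngr2 gave 2.06 (FDR = 0.00132), as it rose in KO (1.16) and fell in WT (-0.90). Nfkb1 gave 1.29 (FDR = 0.00710). Rela gave 1.11 (FDR = 0.0253), a call lost without KO day 0 A, KO day 10 A, KO day 10 B, WT day 0 B, WT day 2 B, WT day 10 A or WT day 10 B (0.92 to 1.17, FDR = 0.0502 to 0.105), and with library totals without TMM (1.11, FDR = 0.0620).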

How the results depend on the processing

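Counts of the 8 genes called differ by 1.5 times or more under the following settings. In KO DESeq2 called 1 gene for day 2 over 0, 2 for day 10 over 0 and 2 for day 10 over 2. It called 2 for KO against WT at day 0 and 4 at day 10. In the same order, DESeq2 called 1507, 3003, 1321, 1757 and 4894 over all genes. A replicate block by letter over all days called 3 in WT between day 0 and day 10. In KO it called 2 between day 0 and day 10 and 1 between day 2 and day 10. It called 5 for KO against WT at day 10 and 2 for the day 10 interaction. In the same order, this block called 6309, 3284, 1152, 6056 and 2942 of all 14324 tested genes. A replicate block at days 0 and 2 only called 2, 5 and 5 in WT (day 2 over 0, 10 over 0, 10 over 2). In KO it called 3, 6 and 5, and for KO against WT 5, 5 and 7 at days 0, 2 and 10. It called 5 for the day 10 interaction. Of all 14324 tested genes this block called 4318, 9412 and 8984 in WT and 4225, 6840 and 5328 in KO. For KO against WT it called 4360, 5252 and 9136 of all genes, and for the day 10 interaction 6388. The labels do not say what the letters pair: A minus B differences correlated at 0.741 to 0.812 among the 4 groups of days 0 and 2, and at -0.061 to 0.049 with or between the day 10 groups. With only the libraries compared, 0 were called in KO between day 0 and day 10. For KO against WT 0 were called at days 0 and 2, and 7 at day 10. In the same order, these fits called 1042, 141, 79 and 8554 over all genes. Fits with letter A alone or letter B alone left 1 library per group at days 0 and 2, so no counts are given for them. Size factors from DESeq2 in edgeR, library totals and no filter gave the same counts as TMM with the filter.

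Leaving out 1 library gave 0 to 2 calls in KO between day 0 and day 10. For KO against WT it gave 0 to 1 at day 0 and 1 to 2 at day 2. For the day 10 interaction it gave 0 to 1. In WT at day 10 against either day, and for KO against WT at day 10, it gave 2 each time. Counts over all tested genes are not given for these fits. A call lost among the class I presentation genes therefore cannot be told from a general loss of calls. Signs turned for Psmb8 in the day 10 interaction (-1.44 to 1.45 with 1 library left out, 1.71 with letter A alone), for Psmb9 in KO between day 0 and day 10 (-0.77 to 0.075 with 1 library left out, 0.0032 with letter B alone) and for Tap1 in KO against WT at day 10 (-0.44 to 0.18 with 1 library left out), none of them called. The cause was not tested. With 2 libraries a group, an arm left with 1 is assumed to vary like the others, and Psmb8 and Psmb9 in KO libraries rest on 1 to 27 counts.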

Other observations

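Ligands read by natural killer and T cells, a set of genes apart from the presentation pathway, went in both directions. Of 6 tested, 1 was higher and 1 lower in KO than in WT at day 10, against 12.4% and 19.9% of all tested genes. H60b, a ligand of the activating receptor NKG2D, had 25.4 and 30.5 CPM in KO libraries, against 10.49 and 6.73 CPM in WT libraries (log2 fold change 1.75 ± 0.414 SE, FDR = 0.0117). Cd274, the gene of PD-L1, had 1.503 and 1.46 CPM in KO libraries, against 8.76 and 6.73 CPM in WT libraries (-2.34 ± 0.592, FDR = 0.0155). In WT cells Cd274 rose between day 0 and day 10 (2.63 ± 0.592, FDR = 0.00848), while the NKG2D ligand genes H60b (-1.89 ± 0.415, FDR = 0.00742), Raet1d (-1.73 ± 0.302, FDR = 0.00248) and Raet1e (-0.91 ± 0.245, FDR = 0.0195) fell. Leaving out 1 library ended some of these calls. For KO against WT at day 10, H60b was not called without KO day 10 B or WT day 10 B (FDR = 0.0697 and 0.0946), nor Cd274 without KO day 10 A, KO day 10 B or WT day 10 A (FDR = 0.0874 to 0.111). In WT over time, leaving out the A library of day 10 or that of day 0 ended the call of Cd274 (FDR = 0.0548 and 0.0765).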
